A study of Mus musculus with 25 samples.

Results

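This account follows 9 genes of coagulation, fibrinolysis and the provisional matrix through the myeloid cells of the injured mouse spinal cord: F10, F7, F3, F13a1, Thbs1, Fn1, Vcan, Plaur and Plau. They were taken by symbol from the deposited count tables, and all 9 of 9 were found among 22439 genes. The tables hold unique molecular identifier (UMI) counts, each UMI standing for 1 captured RNA molecule, of 30958 cells in 25 droplet libraries made from the 3′ ends of transcripts. Each library pools the lesion tissue of 1 to 3 mice, so the library is the replicate.

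The groups differ in time, in sort and in sex. Control libraries (Ctrl, 2) come from laminectomy, in which vertebral bone is removed and the cord left uninjured. The days after injury were 1 (5 libraries, D1), 2 (4 libraries, D2), 3 (7 libraries, D3), 10 (5 libraries, D10) and 21 (2 libraries, D21). All mice carry Cx3cr1CreERT2, an inducible Cre recombinase driven from Cx3cr1, a gene of microglia and monocytes, and all sorted cells were YFP+. In 12 libraries (mixed) the strain is Cx3cr1CreERT2 and YFP alone was sorted. In the others the strain is Cx3cr1CreERT2:R26tdTomato, with a red reporter (RFP) that Cre switches on: 5 libraries of RFP+/YFP+ cells (resident) and 7 of RFP-/YFP+ cells (infiltrating). Strain and sort are therefore split the same way. A single further library (D3_conflict 1) has a title that says infiltrating and a sort label of RFP+/YFP+, and it entered none of the main fits. Descriptions that do not use its sort label (levels by cluster and likeness between genes) include it. Sex, a term of each fit, is not balanced over groups: Ctrl_mixed 1 is female and Ctrl_resident 1 male, the mixed libraries of D1, D3 and D10 are male, and at D2 the infiltrating library is female and the resident one male. Age, inducer and its timing are not given in the sources used here, nor whether sorts of 1 time point share mice.

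Blood clotting begins when tissue factor (F3), a membrane protein of cells outside the vessel, binds factor VII (F7) and the pair activates factor X (F10), the enzyme that makes thrombin. Thrombin turns fibrinogen into fibrin, which the transglutaminase factor XIII (A subunit, F13a1) crosslinks. Fibrin together with fibronectin (Fn1), thrombospondin 1 (Thbs1) and the proteoglycan versican (Vcan) forms the provisional matrix of a wound. Urokinase (Plau), held on the cell surface by its receptor (Plaur), starts fibrin breakdown by activating plasminogen. Clotting factors of the blood are made mainly in the liver, while F13a1 is a known product of monocytes and macrophages.

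The authors' 4 cell type codes were compared with marker lists. The cells called microglia here (13289) passed 9 of 9 microglia markers. The second code (12841 cells) passed 8 of 9 macrophage and 4 of 8 monocyte markers and is called macrophages here, monocytes included. The dendritic-like code (2712 cells) passed 5 of 8 dendritic cell markers, and the neutrophil-like code (2116 cells) 7 of 7 neutrophil markers. The median UMI count per cell was 3062 in microglia, 9144 in macrophages, 11361 in dendritic-like and 2154 in neutrophil-like cells. Across libraries, 127 cell barcodes occurred more than once (254 cells). Levels are CPM (the usual counts-per-million scale, of UMIs) over the summed cells of 1 type in 1 library with at least 20 such cells. Since these are 3′ counts with no length scale, a level is compared only with that of the same gene elsewhere.

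F7 and F10 lie next to each other. On GRCm38 (GENCODE M21), F7 spans chr8:13026034-13035809 and F10 chr8:13037308-13056676, both on the plus strand, with 1498 bases between them and no other annotated gene in the gap. The remaining members are spread over 6 other chromosomes: F13a1 (chr13:36867178-37050244), Vcan (chr13:89655312-89742509), F3 (chr3:121723537-121735048), Thbs1 (chr2:118111876-118127133), Fn1 (chr1:71585520-71653200), Plaur (chr7:24462484-24475968) and Plau (chr14:20836660-20843385). RefSeq promoters (GRCm38.p6) were found for 6 of the 9 members; Thbs1, Fn1 and Plau had no entry. The 250 bases before the start are shown for the neighbours F10 and F7, whose patterns differ below, and for F13a1 and Plaur, which hold a matched motif. Capitals mark matches, on either strand, to TGANTCA (the AP-1 motif), GAGGAAG (a PU.1-type motif) or ACGTG (the core of the hypoxia response element). The windows are chr8:13037058-13037307 (F10, plus strand), chr8:13025784-13026033 (F7, plus strand), chr13:37050245-37050494 (F13a1, minus strand, the more upstream of its 2 entries) and chr7:24462233-24462482 (Plaur, plus strand).
F10: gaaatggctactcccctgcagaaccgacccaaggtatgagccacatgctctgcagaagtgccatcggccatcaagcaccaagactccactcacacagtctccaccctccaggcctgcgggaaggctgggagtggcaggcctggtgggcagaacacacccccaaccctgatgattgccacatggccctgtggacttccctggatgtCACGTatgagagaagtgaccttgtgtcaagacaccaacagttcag
F7: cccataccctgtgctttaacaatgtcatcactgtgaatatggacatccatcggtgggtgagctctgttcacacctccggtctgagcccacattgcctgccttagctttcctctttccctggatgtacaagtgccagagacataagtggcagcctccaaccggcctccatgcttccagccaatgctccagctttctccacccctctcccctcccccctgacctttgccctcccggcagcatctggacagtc
F13a1: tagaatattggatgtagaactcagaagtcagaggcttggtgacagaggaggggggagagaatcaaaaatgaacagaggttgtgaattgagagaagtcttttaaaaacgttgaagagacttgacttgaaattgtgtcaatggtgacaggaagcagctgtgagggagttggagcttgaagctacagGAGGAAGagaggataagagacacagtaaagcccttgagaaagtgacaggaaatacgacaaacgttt
Plaur: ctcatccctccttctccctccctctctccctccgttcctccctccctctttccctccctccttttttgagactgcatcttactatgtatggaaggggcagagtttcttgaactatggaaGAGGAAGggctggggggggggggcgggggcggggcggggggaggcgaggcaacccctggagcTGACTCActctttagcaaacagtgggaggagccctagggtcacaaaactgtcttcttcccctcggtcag

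The Plaur window held 1 AP-1 and 1 PU.1-type match, the F13a1 window 1 PU.1-type match, and the F10 window 1 ACGTG match on the minus strand. F3 held 2 AP-1 matches. None of the 3 motifs was matched in the windows of F7 or Vcan, which says only that these letters are not there. Of 32851 promoter windows of this length, 6.75% held TGANTCA, 10.6% GAGGAAG and 16.6% ACGTG, so a match is a description of the sequence and no more.

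In macrophages most of these genes were abundant in the first days, and by D10 most had fallen. The macrophage fit took infiltrating and mixed libraries, 4 at D1 and 4 at D10, and macrophages of resident libraries were outside it. F10, the thrombin-making protease, stood at 548 and 955 CPM in D1_infiltrating 1 and 2 and at 453 and 647 CPM in D1_mixed 1 and 3. At D10 it stood at 28.7 and 24.8 CPM in D10_infiltrating 1 and 2 and at 104 and 72.1 CPM in D10_mixed 1 and 2. The groups did not overlap, and F10 fell by 3.58 on the log2 scale (SE 0.69, edgeR adjusted p = 0.00598). Its partner F7 was at 29.7 to 81.6 CPM in the 4 D1 libraries and at 0 to 7.76 CPM in the 4 D10 libraries, and fell by 3.38 (SE 0.61, edgeR adjusted p = 0.0041). In the macrophages of D10_resident 1 (134 cells), outside the fit, F7 was at 26.0 CPM and F10 at 22.3 CPM. Tissue factor, the cofactor of F7, was scarcely counted in macrophages: F3 had 35 UMIs at D1, 20 of them in D1_mixed 3 (48.7 CPM), and lay at or below 4.24 CPM in the other D1 libraries. F3 was below the count filter of the macrophage fit.

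**Figure D1:**
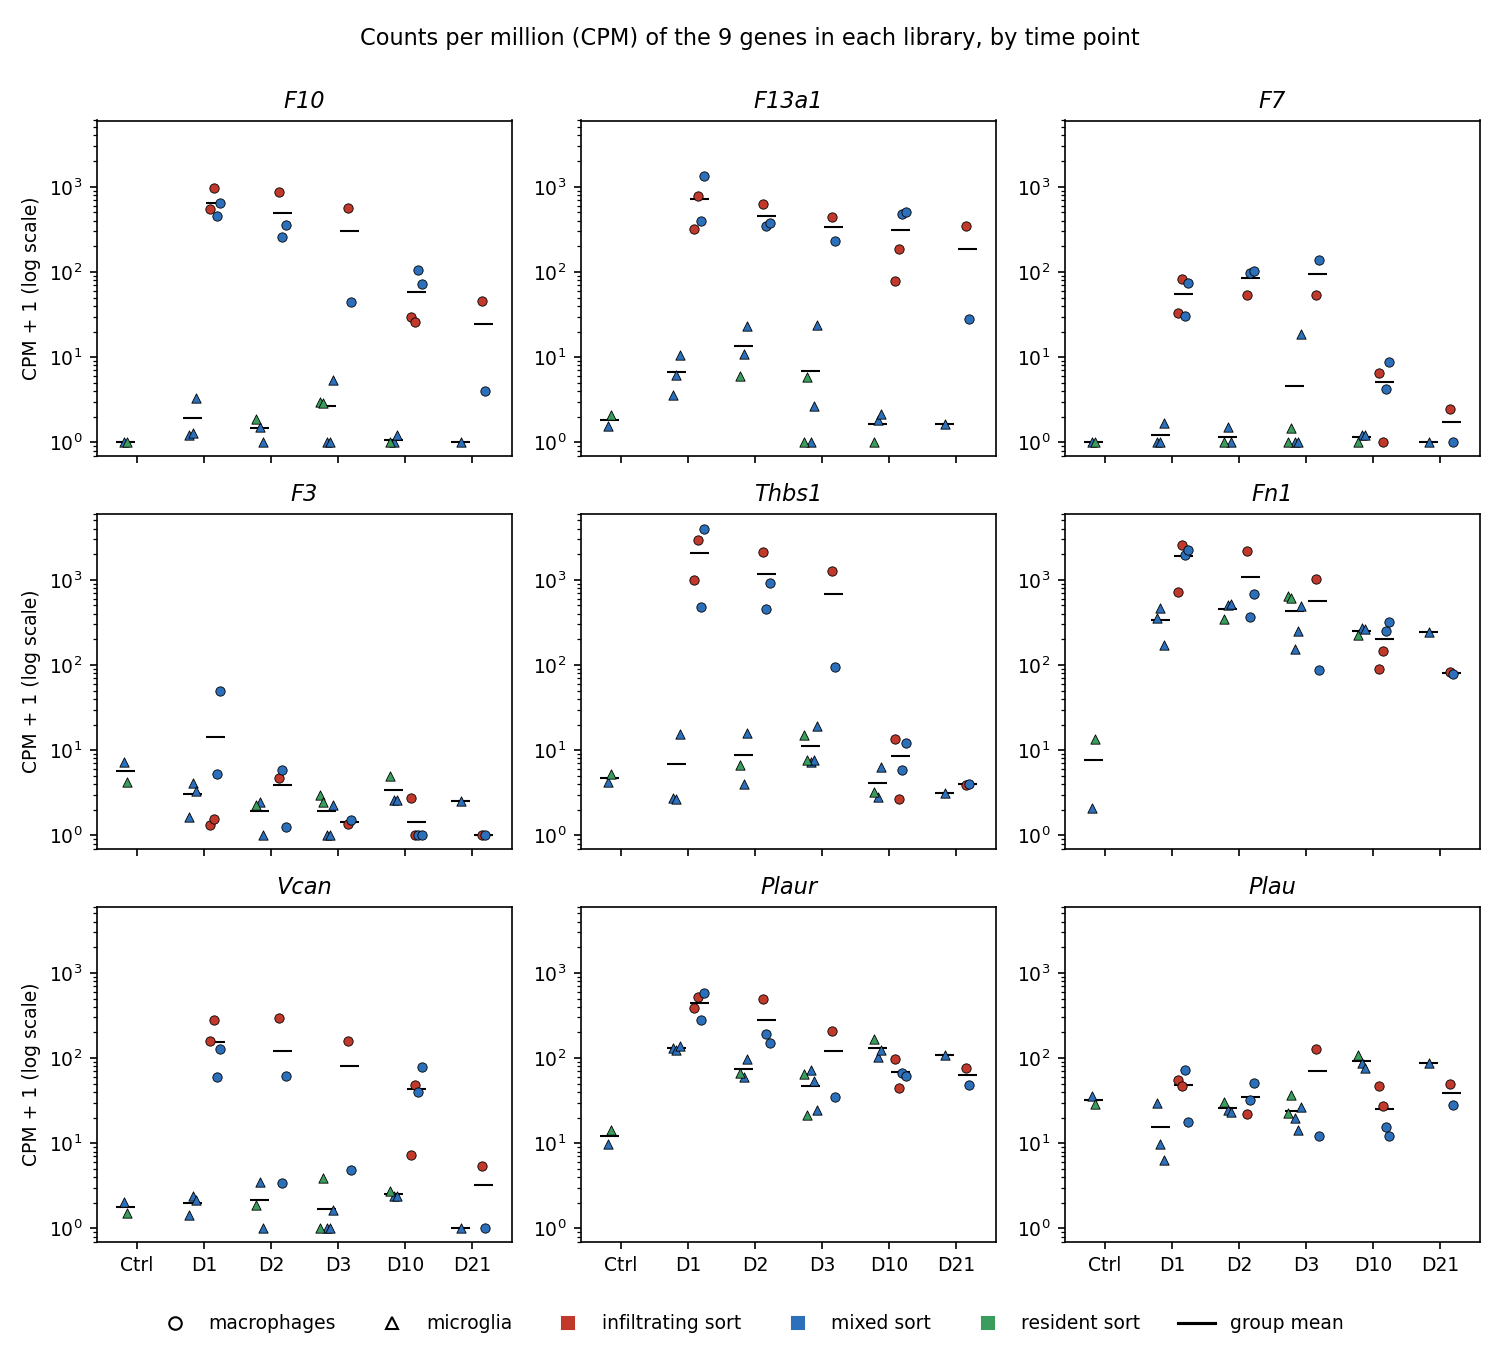
Levels of the 9 genes by library. The vertical axis is CPM + 1 on a log scale and the horizontal axis the time point (not to scale); circles are macrophages, triangles microglia, colours the sort, and bars group means. F10, F7 and Thbs1 are higher in each D1 than in each D10 macrophage library of the fit, D3_mixed 3 has F10 (43.3 CPM) within the D10 range, and Fn1 and Plaur are also raised in microglia after injury.

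Of the matrix genes in macrophages, Thbs1 and Fn1 fell from D1 to D10 and Vcan did not pass. Thbs1 stood at 999 and 2951 CPM in D1_infiltrating 1 and 2 and at 483 and 3907 CPM in D1_mixed 1 and 3. At D10 its 4 values were 12.6, 1.65, 4.88 and 11.1 CPM. Every D1 library was above every D10 library, and Thbs1 fell by 7.92 on the log2 scale (SE 1.00, edgeR adjusted p = 5.43e-04). Fn1 was at 721, 2589.8, 1941 and 2267 CPM at D1 and at 89.0, 145, 249 and 322 CPM at D10, again without overlap, and fell by 3.19 (SE 0.67, edgeR adjusted p = 0.00927). Vcan, which binds hyaluronan in loose matrix, was at 59.3 to 276 CPM at D1 and 6.19 to 77.6 CPM at D10; these ranges overlapped, and the fitted difference of -2.05 log2 units (SE 1.06) did not pass (edgeR adjusted p = 0.207).

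F13a1, the crosslinker of fibrin, stood at 319 to 1340.4 CPM at D1, 342 to 630.4 CPM at D2, 233 and 435 CPM at D3 and 78.1 to 506 CPM at D10. The D1 and D10 ranges overlapped, and the log2 change of -1.29 (SE 0.51) did not pass (edgeR adjusted p = 0.105); with no count filter F13a1 was called lower (-1.41, adjusted p = 0.04966). In the fibrinolytic pair, Plaur and Plau parted: Plaur, the receptor, was at 279.7 to 584 CPM at D1 and 43.0 to 97.1 CPM at D10 and fell by 2.74 (SE 0.46, edgeR adjusted p = 0.0029). Plau, the protease, was at 17.0 to 72.0 CPM at D1 and 11.1 to 45.8 CPM at D10, and differed by -0.84 log2 units without passing (SE 0.61, edgeR adjusted p = 0.38).

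In all, 5 of the 8 members tested in macrophages fell from D1 to D10 (F10, F7, Thbs1, Fn1 and Plaur) and none rose. Over all 8577 genes of that fit 7.04% were lower and 7.31% higher. The median log2 change was -2.96 over the 8 members and 0.01 over all genes. Called here and below means an adjusted p under 0.05 over all genes tested. The 5 calls held in each of 8 fits that left out 1 library, in the mixed libraries alone and without the macrophages of clusters 2 and 3, most of whose cells the authors typed as microglia (an alternative chosen after seeing the data). A code per cell in the deposited annotation, headed SLX and called the pool here, did not hold both D1 and D10 libraries of this fit under any value, and the effects of pool and time therefore cannot be told apart.

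Other measures moved with the time point in these cells. At D1 clusters 11, 12 and 8 held most macrophages of the infiltrating libraries (37.1%, 39.2% and 16.3% in D1_infiltrating 1), and at D10 clusters 9 and 3 did (78.7% and 10.9% in D10_infiltrating 1, 24.1% and 57.8% in D10_infiltrating 2). The summed platelet list (5 of 6 genes counted) ran from 277 to 6094 CPM at D1 and (4 of 6) from 20.1 to 38.0 CPM at D10. Nearly all of it was Pf4 (269.9 to 5914 CPM at D1), a chemokine gene. Ppbp, another platelet chemokine gene and a leading gene of macrophage cluster 11, was at 6.80 to 165 CPM at D1 and 0 to 1.11 CPM at D10. Itga2b and Gp9, which define platelets and their precursors, reached at most 2.43 and 12.2 CPM at D1, Gp5 0.187 CPM, and Gp1bb was at 0. The 9 microglia markers summed to 297 to 1192 CPM in the D1 macrophage sums, 946 to 3372 CPM at D10 and 2364 to 4352 CPM at D21. The 9 macrophage markers summed to 9148 to 16095 CPM at D1, 2382 to 7339 CPM at D10 and 2948 to 5227 CPM at D21. Handling response genes summed to 1868 to 2339 CPM at D1 and 591 to 646 CPM at D10, and the median percent of mitochondrial counts was 0.162 to 1.43 at D1 and 1.45 to 1.61 at D10. The part of these differences in the result was not tested.

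Cluster 9, present from D1 to D21, gave these levels within 1 cluster. Its F10 level was 251 CPM in D1_infiltrating 1, 24.6, 41.1 and 137 CPM at D3 in D3_infiltrating 1, D3_mixed 3 and D3_conflict 1, 9.05 and 0 CPM in D10_infiltrating 1 and 2, and 0 CPM in D21_infiltrating 1. In the resident libraries it was 4.79 CPM at D2 (29 cells) and 24.3 CPM at D10, so the order did not follow time in every library. Thbs1 in the same cells was 359.7 CPM at D1, 18.9, 96.3 and 151 CPM at D3 in the same order, 11.2 and 4.93 CPM in D10_infiltrating 1 and 2 and 12.8 CPM at D21, with 23.9 and 14.2 CPM in D2_resident 1 and D10_resident 1. Cluster 9 was defined from expression, so these values carry no test.

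At D21 there were 2 libraries of macrophages, with 89 and 78 cells. F10 was at 44.1 and 2.99 CPM, Fn1 at 82.4 and 77.7 CPM, Plaur at 76.5 and 47.8 CPM and F13a1 at 347 and 26.9 CPM. Thbs1 had 3 UMIs in all against 64110 at D1, a CPM ratio of 0.00147 with a 95% counting interval of 3.02e-04 to 0.00429, and F7 had 1 UMI against 1823, a ratio of 0.0172 (4.35e-04 to 0.0959). Against D1 the same 5 genes were called lower, where 1.61% of all genes were. F10 fell by 4.61 (SE 1.03, edgeR adjusted p = 0.0254) and Fn1 by 4.11 (SE 1.00, edgeR adjusted p = 0.0364). With either D21 library left out 0 of the members were called, as was so without clusters 2 and 3; without D1_infiltrating 2, and with the pool as a term, 1 was (Thbs1). Fn1 lost its call in 10 of 14 alternatives.

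**Figure D2:**
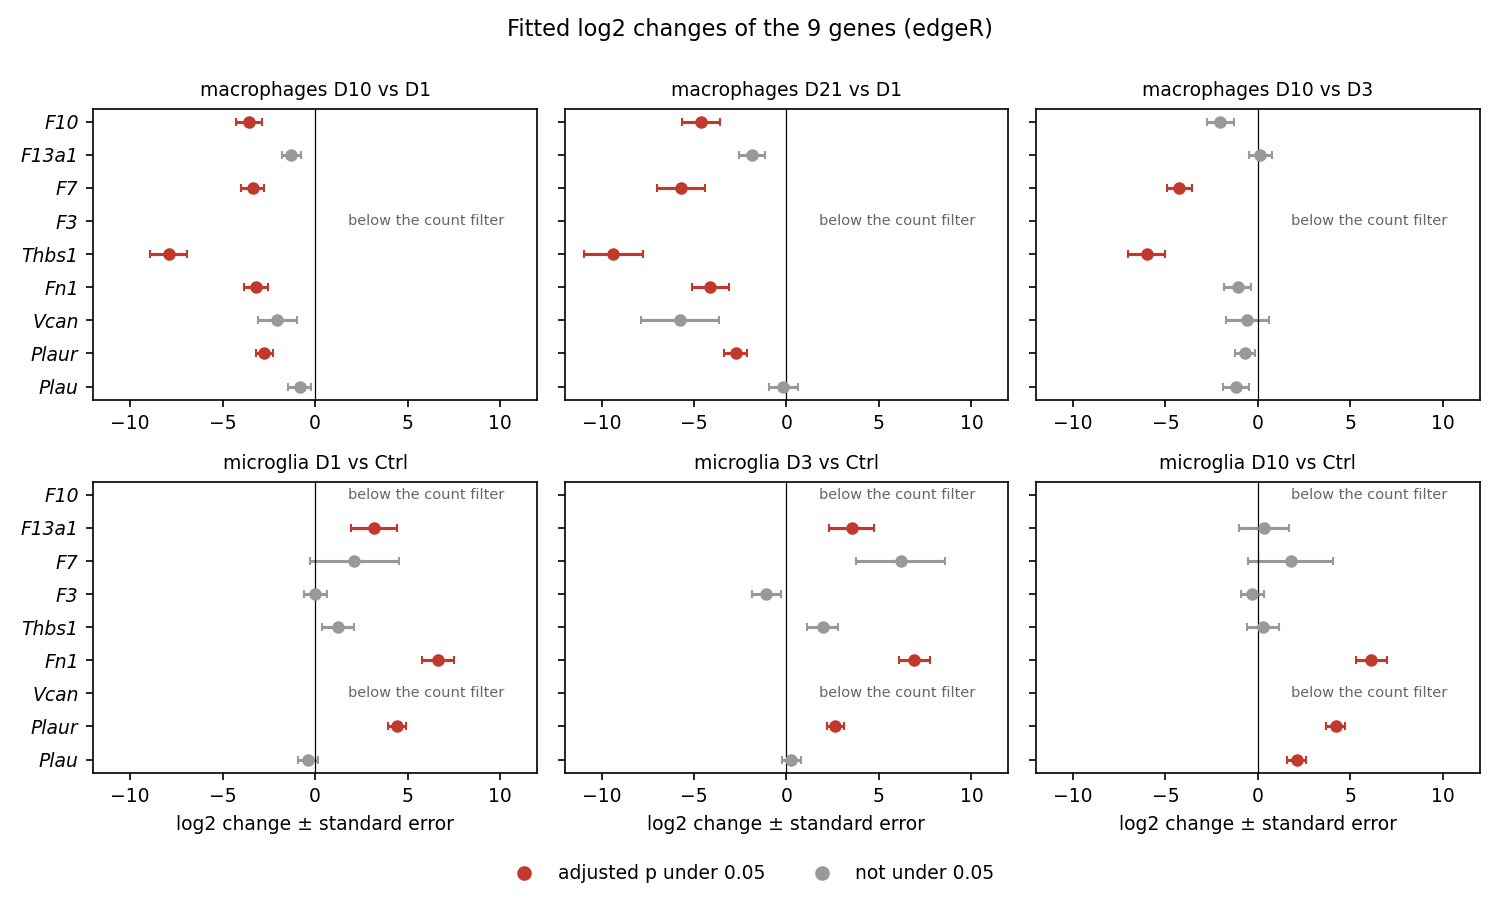
Fitted log2 changes with standard errors from edgeR for 3 macrophage and 3 microglia comparisons; red marks an adjusted p under 0.05. In macrophages F10, F7, Thbs1, Fn1 and Plaur lie left of 0 at D10 and D21 against D1, and in microglia Fn1 and Plaur lie right of 0 at every time shown.

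At D3 the 2 macrophage libraries of the fit differed from each other. D3_infiltrating 1 had 564 CPM of F10, 1262 of Thbs1, 1028 of Fn1 and 156 of Vcan, each within the D1 range, and 206 CPM of Plaur, below it. D3_mixed 3 had 43.3, 93.1, 87.2, 3.90 and 34.3 CPM of these 5 genes in that order. F7 ran the other way, with 52.6 CPM in D3_infiltrating 1 and 137 CPM in D3_mixed 3, the highest F7 level of any macrophage library. In D3_mixed 3, 88.6% of 3019 macrophages were in cluster 9, against 3.76% in D3_infiltrating 1. From D3 to D10, Thbs1 fell by 6.01 (SE 1.01, edgeR adjusted p = 0.013) and F7 by 4.25 (SE 0.68, edgeR adjusted p = 0.0111). These were 2 of 8 members, where 0.583% of all genes were called lower. Without D3_infiltrating 1 (log2 change -3.76, adjusted p = 0.0762) or D10_infiltrating 2 (-5.74, adjusted p = 0.0595) the Thbs1 call was lost. Without D3_mixed 3 the F7 change was -2.80 (adjusted p = 0.0328), and F10 was called too (-2.86, adjusted p = 0.0469). With D10_mixed 1 or 2 left out neither gene was called. Fn1 (-1.09, adjusted p = 0.528) and Vcan (-0.56, adjusted p = 0.891) did not pass. In the mixed libraries alone, where D3_mixed 3 is the only D3 library, their log2 changes were 1.33 and 3.55.

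The 4 main macrophage clusters carried the genes in different mixtures. Cluster 11 (4504 cells; leading genes Cxcl3, Rsad2 and Ccl7) had the highest pooled F10, 861 CPM, and 92.3 CPM of Plau, which ran from 23.7 to 174 CPM by library. Within libraries Plau in cluster 8 was 0.412 to 0.843 times its level in cluster 11 (lower in 8 of 8). Cluster 12 (2043 cells; Dmkn, Hp and Id3) had 408 CPM of Vcan, the highest of the 16 clusters. Cluster 8 (1735 cells; the haemoglobin genes Hbb-bs and Hba-a2 are among its leading genes) had 1432 CPM of Fn1, and 419 CPM of Thbs1 where clusters 11 and 12 had 2146 and 1792 CPM. Thbs1 and F10 are themselves among the 10 leading genes of cluster 11, Vcan of cluster 12 and Fn1 of cluster 8, and all levels between clusters are descriptions.

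**Figure D3:**
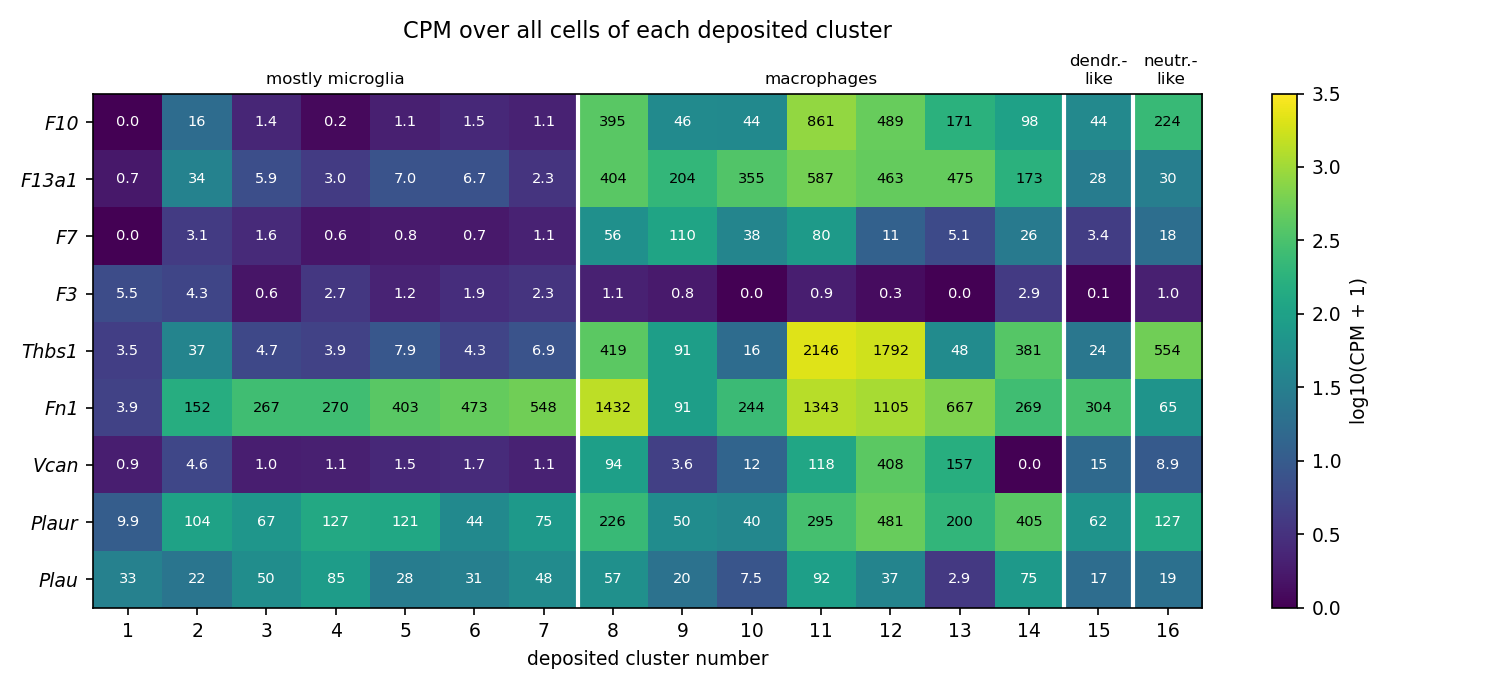
CPM of each gene over all cells of each deposited cluster; colour is log10(CPM + 1) and the numbers are CPM. Rows are genes, columns the 16 clusters, with vertical lines between those typed mostly as microglia, macrophages, dendritic-like and neutrophil-like cells; F10 is highest in cluster 11 and Vcan in cluster 12. The F7 value of cluster 9 is mostly that of D3_mixed 3, which holds 2676 of its 3554 cells.

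Within single libraries the contrast between neighbouring genes F7 and F10 was repeated. In the 6 libraries with at least 20 cells of both clusters, the F7 level of cluster 12 was 0.0891 to 0.206 times that of cluster 11 (lower in 6 of 6), while the F10 level was 0.367 to 1.16 times (lower in 5 of 6). In cluster 9 the F7 level was 0.285 to 1.48 times that of cluster 11 over 5 libraries (lower in 3), while F10 was 0.00634 to 0.321 times (lower in 5 of 5). Cluster 12 thus held F10 with little F7, and cluster 9 of D3_mixed 3 held 143 CPM of F7 with 41.1 CPM of F10. Without D3_conflict 1 the ranges of these 4 ratios were the same, with cluster 12 lower in 5 of 5 libraries for F7 and 4 of 5 for F10, and cluster 9 lower in 2 of 4 for F7 and 4 of 4 for F10. The promoter windows printed above are those of these genes.

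Thbs1, Fn1, Vcan and Plaur also parted by cluster within libraries. Thbs1 in cluster 8 was 0.0344 to 0.280 times its level in cluster 11 (lower in 8 of 8 libraries), while Fn1 was 0.805 to 1.47 times (lower in 4 of 8). Vcan in cluster 12 was 2.21 to 8.92 times its level in cluster 11, and Plaur 1.19 to 2.44 times, both higher in 6 of 6 libraries. Without D3_conflict 1 the lowest Fn1 ratio was 0.864 (lower in 3 of 7 libraries), Thbs1 was lower in 7 of 7, and Vcan and Plaur were higher in 5 of 5.

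**Figure D4:**
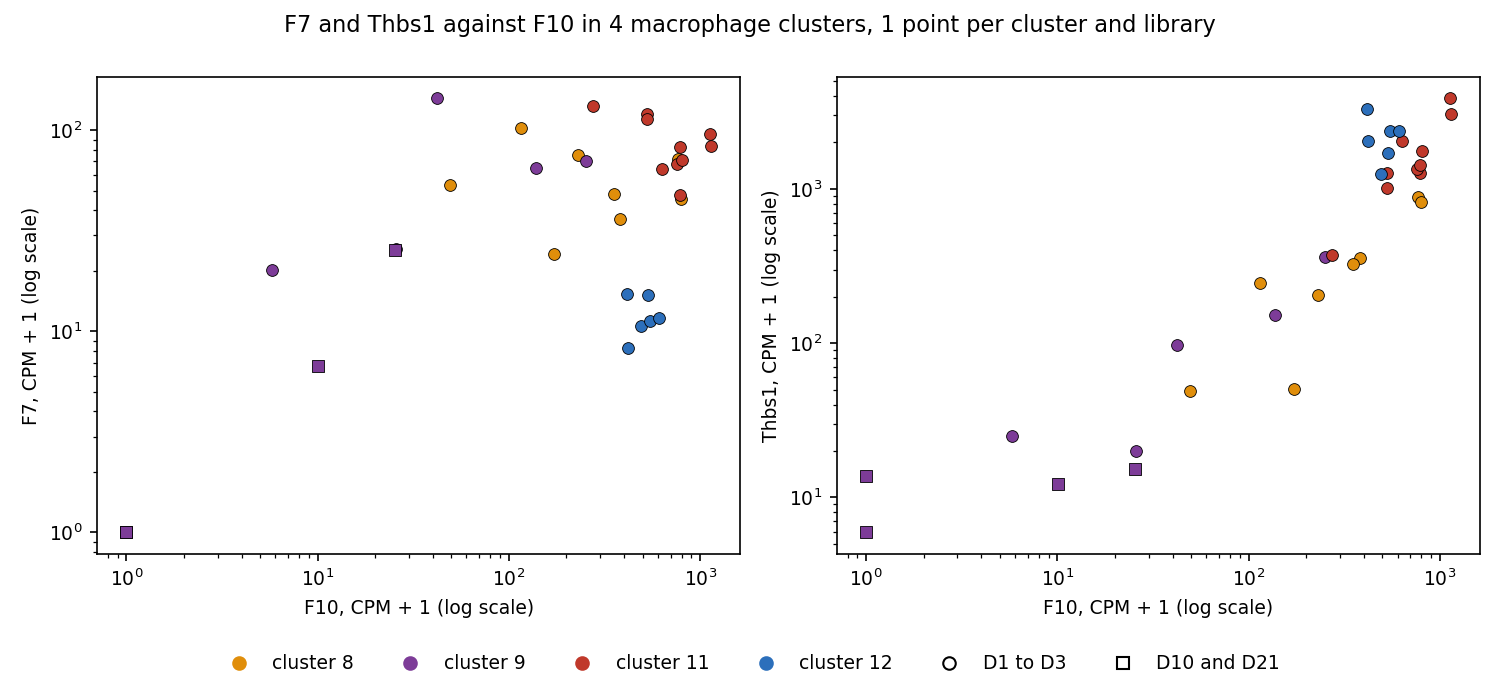
F7 (left) and Thbs1 (right) against F10 in macrophage clusters 8, 9, 11 and 12, with 1 point per cluster and library of at least 20 cells; axes are CPM + 1 on log scales, circles D1 to D3 and squares D10 and D21. Cluster 12 has 7.28 to 14.3 CPM of F7 at 413 to 608 CPM of F10.

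In microglia the pattern was another one. The microglia fit took resident and mixed libraries, and ranges below are over these 17. Microglia of 2 infiltrating libraries, D10_infiltrating 2 (36 cells) and D21_infiltrating 1 (41 cells), were outside it: their Fn1 levels were 95.1 CPM (8 UMIs) and 15.6 CPM (2 UMIs), and their Plaur levels 59.4 CPM (5 UMIs) and 23.4 CPM (3 UMIs). Fn1 stood at 1.07 and 12.4 CPM in Ctrl_mixed 1 and Ctrl_resident 1 and at 357, 471 and 172 CPM in the 3 D1 libraries. It remained at 349 to 518 CPM at D2, 155 to 653 CPM at D3, 224 to 269.8 CPM at D10 and 245 CPM in the D21 library. No injury library of the fit overlapped the controls. The fitted rise over Ctrl was 6.66 on the log2 scale at D1 (SE 0.87, edgeR adjusted p = 2.44e-05), 6.75 for D2, 6.92 for D3, 6.14 for D10 (SE 0.85, edgeR adjusted p = 1.63e-04) and 6.40 for D21. Fn1 was called in every alternative fit of these 5 comparisons, but the size of the rise moved with the control kept. Without Ctrl_mixed 1 the log2 rise was 5.48 for D1, 5.43 for D2, 5.65 for D3, 4.86 for D10 and 4.87 for D21, and without Ctrl_resident 1 it was 9.27, 9.18, 9.40, 8.60 and 8.65 in that order. The library sums of microglia and macrophages overlapped at D2, D3 and D10. D21 is 1 microglia library, so its tests assume that it varies like the libraries of the other times.

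Marker sums in microglia moved with these rises. The 9 microglia markers summed to 23389 to 26229.8 CPM in Ctrl, 4079 to 8364 CPM at D1, 8705 to 13384 CPM at D3 and 12059 to 13526 CPM at D10. The 9 macrophage markers summed to 16.4 to 41.0 CPM in Ctrl, with 3 of them at 0, and to 577 to 1515, 965 to 2991 and 993 to 1297 CPM at those times. Handling response genes went from 1162 to 1655 CPM in Ctrl to 414 to 613 CPM at D1 and 659 to 836 CPM at D10. Their part in the results was not tested.

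Plaur rose, sank and rose again. It was at 8.75 and 13.5 CPM in Ctrl, 125 to 137 CPM at D1, 58.7 to 96.2 CPM at D2, 20.7 to 72.1 CPM at D3, 103 to 165 CPM at D10 and 107 CPM at D21. In the libraries of the fit D3 lay below D1 and below D10 without overlap, whereas the 59.4 CPM of D10_infiltrating 2 lay within the D3 range. Against Ctrl the log2 rise was 4.42 at D1 (SE 0.50, edgeR adjusted p = 8.71e-06), 2.63 at D3 (SE 0.46, edgeR adjusted p = 3.90e-04) and 4.20 at D10 (SE 0.49, edgeR adjusted p = 3.12e-05). From D1 to D3 Plaur fell by 1.79 (SE 0.33, edgeR adjusted p = 0.0015), and from D3 to D10 it rose by 1.58 (SE 0.33, edgeR adjusted p = 0.0103). With the pool as a term the D3 rise over Ctrl (1.19, adjusted p = 0.333) and the rise from D3 to D10 (3.03, adjusted p = 0.568) were no longer called. The mixed libraries alone also lost both (adjusted p = 0.121 and 0.105) and the D10 rise over Ctrl (3.80, adjusted p = 0.0947); against Ctrl that fit has 1 control library, Ctrl_mixed 1, here and below.

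Plau was higher at D10 and D21 than in Ctrl. It was at 34.8 and 28.1 CPM in Ctrl, 28.9, 8.83 and 5.34 CPM at D1, 13.5 to 36.1 CPM at D3, 75.7, 87.4 and 108 CPM at D10 and 87.3 CPM at D21. Every D10 library of the fit was above every earlier one. The rise over Ctrl was 2.11 at D10 (SE 0.51, edgeR adjusted p = 0.0112) and 2.28 at D21 (SE 0.62, edgeR adjusted p = 0.0315), and from D3 to D10 Plau rose by 1.83 (SE 0.40, edgeR adjusted p = 0.0134). The D10 call over Ctrl was lost without Ctrl_mixed 1 (adjusted p = 0.122), Ctrl_resident 1 (0.146) or D10_resident 1 (0.0819), with log2 changes of 1.92 to 2.28 in those fits, and in the mixed libraries alone (2.13, adjusted p = 0.625). From D1 to D3 Plau differed by 0.65 without passing, but without D1_mixed 1, the D1 library with the highest level, it was called higher at D3 (1.61, SE 0.38, adjusted p = 0.0115). The D21 call was lost without Ctrl_mixed 1 (adjusted p = 0.223) or Ctrl_resident 1 (0.117) and in the mixed libraries alone (0.164).

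The other members were scarce in microglia. F10 had 0 UMIs in Ctrl, 12 at D1 and 1 at D10, and with Vcan it was below the count filter. F13a1 was at 0.536 and 1.08 CPM in Ctrl, 2.63 to 9.52 CPM at D1 and 5.00 to 22.2 CPM at D2, and its log2 rises of 3.21 at D1 (SE 1.24, edgeR adjusted p = 0.0426), 3.76 at D2 (SE 1.19, edgeR adjusted p = 0.025) and 3.53 at D3 (SE 1.22, edgeR adjusted p = 0.0303) were called. At D1 the F13a1 call was lost in 8 of 11 alternatives, among them DESeq2. At D3 it rested on D3_mixed 3 (22.6 CPM against 0 to 4.81 CPM in the other 4 libraries) and was lost without that library (2.21, adjusted p = 0.134), without Ctrl_mixed 1 (0.153) or Ctrl_resident 1 (0.15), with the pool as a term (0.472) and in the mixed libraries alone (0.361). The D2 call was lost in 5 of 12 alternatives: without Ctrl_mixed 1, Ctrl_resident 1 or D2_mixed 1, with the pool as a term, and in the mixed libraries alone. F7 had 29 UMIs at D3, 28 of them in D3_mixed 3, against 3 at D1. Their CPM ratio was 22.8 with a 95% counting interval of 7.07 to 117, and F7 was called (edgeR adjusted p = 0.0458) but not with DESeq2 (adjusted p = 0.538) or a minimum of 50 cells (0.0607), in the mixed libraries alone (0.0539), or without D1_mixed 1 (0.139) or D1_mixed 2 (0.143). Without D3_mixed 3, and in the fit with a replicate block, F7 was not tested. In that library microglia held 0.102 times the macrophage level of F10, 0.0973 times that of F13a1, 0.129 times that of F7 and 5.65 times that of Fn1; how far macrophage RNA entered these counts was not tested. Thbs1 ran from 1.71 to 18.2 CPM over the microglia libraries of the fit and was called in none of the comparisons as planned; at D3 against Ctrl it differed by 1.95 (SE 0.84, edgeR adjusted p = 0.0776), and with no count filter that was called (1.86, adjusted p = 0.049). At D3 against D1 it differed by 0.72, but by 2.52 without D1_mixed 3, and was then called (adjusted p = 0.01). F3 was at 6.25 and 3.24 CPM in Ctrl and 0 to 3.99 CPM after injury.

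Against Ctrl, 3 of the 7 members tested were higher at each time: Fn1, Plaur and F13a1 at D1, D2 and D3, and Fn1, Plaur and Plau at D10 and D21. None was lower, but without D1_mixed 1 Plau was called lower at D1 (-1.32, adjusted p = 0.0234). Over all 10801 genes of the fit, 23.9% were higher at D1, 17.6% at D2 and 20.1% at D3. The later shares were 8.06% (D10) and 6.12% (D21), so the members' share lay nearest to the background at D1. From D1 to D3, 2 of 7 were called (Plaur lower, F7 higher), where 18.8% of all genes were called in either direction. F7 did not pass the count filter without D3_mixed 3, so its call rests on 1 library. From D3 to D10, 2 of 7 were higher (Plaur and Plau), where 2.96% of all genes were. In that comparison 0 members were called with the pool as a term, in the mixed libraries alone, or without D10_resident 1 or D10_mixed 2, and 1 (Plaur) without D10_mixed 1. F13a1 differed by -3.20 from D3 to D10 without passing (SE 0.97, edgeR adjusted p = 0.0545). It was called lower with no count filter (-3.19, adjusted p = 0.0117), by DESeq2 (-3.05, 0.0339), without D3_resident 1 (-3.47, 0.0353) and without D3_mixed 1 (-3.44, 0.0448). With no count filter F7 (-4.34, adjusted p = 0.0353) and F10 (-4.01, 0.044) were called lower too. At D3 against Ctrl, leaving out D3_resident 1, D3_resident 2, D3_mixed 1 or D3_mixed 2 brought the count to 5, with F7 and F10 added.

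The time courses of the 2 cell types were then compared in 1 fit of both. From D1 to D10 the change in macrophages was lower than that in microglia by 6.84 on the log2 scale for Thbs1 (SE 1.23, edgeR adjusted p = 0.00272), 3.38 for Plau (SE 0.80, edgeR adjusted p = 0.0107), 2.53 for Plaur (SE 0.60, edgeR adjusted p = 0.0107) and 2.85 for Fn1 (SE 0.92, edgeR adjusted p = 0.0414). These were 4 of 9 members, where 6.12% of 11486 genes were called lower. Thbs1 kept its call in all 19 alternatives. Plau and Plaur lost theirs only without D10_mixed 2, and Fn1 lost its call in 12 of 19. With the library as a block, which joins both sums of 1 library, F13a1 (2.05, the change in macrophages being the higher, adjusted p = 0.00414) and F3 (-9.10, adjusted p = 0.00276) were called too, making 6 of 9. F3 was also called with the pool as a term (-5.28) and in the mixed libraries alone (-8.85).

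Within single libraries that hold both cell types the order turned for the fibrinolytic pair. From D1 to D3 Plaur was higher in macrophages in 8 of 8 libraries and Plau in 7 of 8. At D10 and D21 each was higher in macrophages in 1 of 6, D21_infiltrating 1, whose microglia hold 3 UMIs of either gene. The microglia of D10_infiltrating 2, where both were lower in macrophages, hold only 5 UMIs of either gene. In D10_mixed 2, Plau was at 11.1 CPM in macrophages and 75.7 CPM in microglia. F10 and F13a1 were higher in macrophages in 14 of these libraries, 8 of 8 early and 6 of 6 late. For F10 the late order rests on few UMIs in D21_mixed 1 (1 in macrophages, 0 in microglia) and D10_infiltrating 2 (15 and 0). Cell types were made from expression, so this order carries no test.

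The share of cells with at least 1 UMI went with the level in some contrasts and not in others. From D1 to D2 in macrophages the mean share of F10 went from 62.0% to 69.8% and that of F13a1 from 56.8% to 68.1%. Their mean levels went from 651 to 496 CPM and from 709 to 448 CPM. F10 was counted in 62.0% ± 29.9 (SD, n = 4 libraries) of macrophages at D1 and 16.3% ± 9.31 (SD, n = 4) at D10, against 0.272% ± 0.290 (SD, n = 3) of D1 microglia. Median depths were 9522, 6159 and 3028 UMIs. With cells thinned to 1000 UMIs the shares were 33.0%, 3.66% and 0.101%. The 13, 3 and 6 cells of these groups under that depth were left out. Thbs1 was counted in 58.6% ± 22.0 (SD, n = 4) of D1 macrophages and 1.79% ± 1.86 (SD, n = 3) of D1 microglia, and in 37.8% and 0.528% after thinning.

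Dendritic-like and neutrophil-like cells carried different members. In D1_infiltrating 2, F10 was at 955 CPM in macrophages, 111 CPM in dendritic-like and 304 CPM in neutrophil-like cells, and Thbs1 at 2951, 96.5 and 1235 CPM. Fn1 there was at 2589.8, 954 and 122 CPM, so that of these 2 types Fn1 was higher in dendritic-like and Thbs1 in neutrophil-like cells. In D2_mixed 2, neutrophil-like cells had 426 CPM of F10 (51 cells) and macrophages 358 CPM. In the other 4 libraries with neutrophil-like sums macrophages had the higher F10 level, with 548 against 130.3 CPM in D1_infiltrating 1, 874 against 106 CPM in D2_infiltrating 1 and 589 against 219.8 CPM in D3_conflict 1 beside the D1_infiltrating 2 values above. Free RNA was not subtracted, and its part in these levels was not tested.

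The sort gave a comparison that does not use expression. Over all cells of a library, F10 was at 697 CPM in D2_infiltrating 1 and 59.4 CPM in D2_resident 1, at 309 CPM in D3_infiltrating 1 and 171 and 121 CPM in D3_resident 1 and 2, and at 26.5 and 20.2 CPM in D10_infiltrating 1 and 2 and 7.20 CPM in D10_resident 1. Infiltrating libraries were higher at each of these times, the only ones with both sorts. The D1 libraries, a female and a male one, bear on the contrast through the sex term. F10 was 2.02 higher on the log2 scale (SE 0.47, edgeR adjusted p = 0.0292), the 1 of 8 members called, where 5.02% of 10074 genes were higher and 5.67% lower. F13a1 (2.08, SE 0.60, edgeR adjusted p = 0.0604) and Vcan (3.34, SE 0.95, edgeR adjusted p = 0.0573) did not pass, though both were called with DESeq2, with no count filter, with D3_conflict 1 as infiltrating, and without D1_infiltrating 1, D1_infiltrating 2 or D3_infiltrating 1. Vcan was called with the pool as a term (1.75, adjusted p = 0.00958) and without D10_infiltrating 1, and its difference was 1.38 without either D2 library and 5.37 without D3_infiltrating 1. For F13a1 these were 0.95 and 2.90. Thbs1 (1.54; called without D1_infiltrating 2), Plaur (0.45), F7 (0.45), Fn1 (0.18) and Plau (-0.55) were not called. F10 lost its call in 7 of the 12 fits that left out 1 library (D2_infiltrating 1, D2_resident 1, D3_resident 1 or 2, D10_infiltrating 1 or 2, or D10_resident 1; log2 differences of 1.15 to 2.14) and with the pool as a term (1.41, adjusted p = 0.071).

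Macrophages made up 55.6% to 90.3% of the infiltrating libraries and 0% to 25.2% of the resident ones, and in sums over all cells more cells of a type and more RNA per cell cannot be told apart. The macrophages inside resident libraries had 352 CPM of F10 at D2 and 388 and 358 CPM at D3, against 874 CPM in D2_infiltrating 1 and 564 CPM in D3_infiltrating 1. Their Fn1 levels were 572, 628 and 1208 CPM, against 2167 and 1028 CPM.

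**Figure D5:**
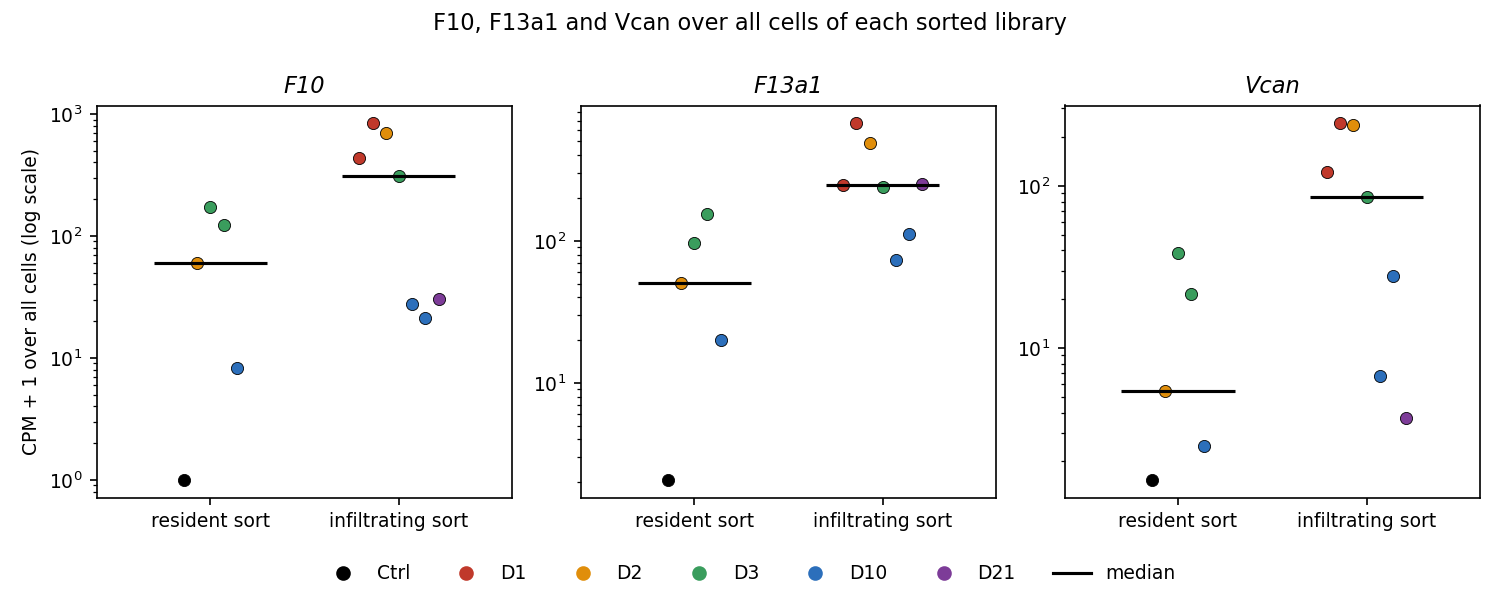
F10, F13a1 and Vcan over all cells of each resident (5) and infiltrating (7) library; the vertical axis is CPM + 1 on a log scale, colours are time points and bars medians. F10 is higher in infiltrating than in resident libraries at D2, D3 and D10, and D1 and D21 have no resident library.

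Of 22 other genes of the coagulation cascade and its inhibitors, 5 entered the macrophage fit and 7 the microglia fit, and 0 of 4 thrombin receptors entered any. In macrophages from D1 to D10, Vkorc1, which recycles vitamin K for clotting factors, rose by 2.36 (SE 0.47, edgeR adjusted p = 0.00673) and none of the 5 fell, where 7.31% of all genes were higher and 7.04% lower. Thbd, the thrombin-binding anticoagulant, differed by -1.97 log2 units without passing (SE 0.73, edgeR adjusted p = 0.0847). In microglia, Tfpi, the inhibitor of the tissue factor pathway, was at 38.3 and 38.6 CPM in Ctrl and 60.8 to 93.0 CPM at D1 and rose by 1.65 (SE 0.45, edgeR adjusted p = 0.00625). It was 1 of 7 genes that passed at D1, with none lower, where 23.9% of all genes were higher and 22.7% lower. At D10 1 of 7 passed, where 8.06% of all genes were higher. It was Vkorc1, which rose by 1.02 (SE 0.32, edgeR adjusted p = 0.049999) and lay at the threshold.

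Among 12 other fibrinolysis genes, 7 were tested in each cell type. The shares over all genes were 7.04% lower in macrophages from D1 to D10, and 23.9% higher and 22.7% lower in microglia at D1. Anxa2, part of the plasminogen receptor, was at 784 to 1462 CPM in macrophages at D1 and 248 to 548 CPM at D10 and was the 1 of the 7 called there; it fell by 1.57 (SE 0.34, edgeR adjusted p = 0.00981). S100a10, with 1013 to 2184 CPM at D1 and 173 to 849 CPM at D10, differed by -1.86 log2 units without passing (SE 0.68, edgeR adjusted p = 0.0787). In microglia Anxa2 rose by 5.19 at D1 (SE 0.65, edgeR adjusted p = 1.73e-05), beside its partner S100a10 (3.27, SE 0.85, edgeR adjusted p = 0.00472), and Mrc2 fell by 2.57. At D10 Anxa2 alone of the 7 was higher, where 8.06% of all genes were.

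Of 16 other provisional matrix genes, 3 were tested in macrophages, and 2 fell from D1 to D10: Tgfbi, a fibronectin-binding matrix protein, by 2.73 (SE 0.43, edgeR adjusted p = 0.00217), and the crosslinker Tgm2, which fell by 3.11 (SE 0.50, edgeR adjusted p = 0.00247), where 7.04% of all genes were lower. In microglia both rose at D1, among 7 tested, Tgfbi by 5.03 and Tgm2 by 2.81, while Sparc fell by 1.86; none of the 7 passed at D10. Of 10 receptors for the matrix proteins, 9 were tested in macrophages from D1 to D10. Itga5, the fibronectin receptor subunit, fell by 2.34 (SE 0.42, edgeR adjusted p = 0.00413). Cd36, a Thbs1 receptor, and Cd44, a hyaluronan receptor, were also lower and 1 of the 9 was higher. Over all genes of that comparison 7.04% were lower and 7.31% higher. In microglia 3 of 10 were higher and 4 lower at D1, where 23.9% of all genes were higher and 22.7% lower, and 2 higher (Cd44 and Cd36) and 1 lower (Itgav) at D10. At D10 8.06% of all genes of the microglia fit were higher and 2.22% lower.

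Between infiltrating and resident libraries the other pathway genes went both ways. Of 8 coagulation genes tested 1 was higher and 3 lower, the latter Pros1 (-2.85, SE 0.37, edgeR adjusted p = 0.00349), Tfpi (-2.97, SE 0.39, edgeR adjusted p = 0.00354) and Vkorc1. Of 7 fibrinolysis genes 2 were higher and 2 lower, of 3 matrix genes 2 and 1, and of 10 receptors 2 and 2, beside 5.02% higher and 5.67% lower over all genes of that fit. Sparc, a matrix protein at 3527 and 4250.1 CPM in Ctrl microglia, was lower in the infiltrating libraries, with a log2 difference of -7.37 (SE 0.82, edgeR adjusted p = 0.00211).

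The genes whose levels ran most like a member's were listed over 54 sums of a cell type in a library, among 5550 genes with a mean of at least 20 CPM. For F10 they were Gda (r = 0.932), Chil3 (0.926) and Rbms1 (0.924), for Thbs1 Rhov (0.915), Clec4d (0.879) and Rbms1 (0.871), and for Vcan Ms4a8a (0.857), Chil3 (0.825) and F10 itself (0.800). For F7 they were Pde4d (0.853), Emp1 (0.844) and Esd (0.837), with F10 not among the 3. For F13a1 the highest was Cd93 (0.871), for Fn1 Msr1 (0.831), for Plau Tent5c (0.786), for Plaur Lilr4b (0.756) and for F3 Tigd2 (0.603). These are Pearson correlations of log2(CPM + 1) across sums that share libraries and cell types, and describe likeness of pattern only.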

How the data were processed

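Single myeloid cells sorted from spinal cord lesions were sequenced by the 10x 3′ method, per the labels' protocols. The submitters' processing notes name Cell Ranger 3.1.0 and the builds GRCm38 and mm10. The deposited tables hold unnormalised UMI counts, genes by cells, with an annotation of cluster, cell type, pool and percent of mitochondrial counts per cell, per the file headers. All 30958 cells were kept; each cell's summed counts equalled the deposited total. Neither doublets nor free RNA were removed here; whether the authors did either is not given in the sources used here. Libraries held 155 to 3800 cells and 486649 to 33204422 UMIs.

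Counts were summed per library and cell type with at least 20 cells (microglia of resident and mixed, macrophages of infiltrating and mixed libraries). The sums were tested with edgeR 4.0.16 in R 4.3.3 (TMM scaling, filterByExpr, quasi-likelihood test, Benjamini-Hochberg adjustment over all genes tested). Each fit had terms for time and sex, with time taken per cell type in the fit across cell types. Sort was a term of the fit between sorts alone, so the changes with time are not adjusted for sort or strain. The microglia fit held 17 sums (135097 to 7794902 UMIs) and the macrophage fit 15 (235999 to 22068469 UMIs). The fit across cell types treated both sums of a library as separate, and the sort fit took all cells of 12 libraries. P-values cover the spread between libraries only. Levels between cell types and clusters, which the authors made from expression, were not tested. Counting intervals are exact, at 95%, and cover counting error only.

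The members and pathway lists were chosen with earlier results of these data known. Named were all members, up to 3 genes per list with the smallest adjusted p, and the 3 genes most correlated with each member. Scripts were tested on simulated data. Alternatives were other scaling, no filter, DESeq2 1.42.0, at least 50 cells, the pool as a term, the mixed libraries alone, cells without cluster 2, a replicate block, the library as a block in the fit across cell types, the library with conflicting labels, and leaving out each library.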

Additional observations from a re-analysis of the deposited data

Results flagged for a closer look

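Within groups of 4 to 7 libraries, 45 sets of values were examined for a single library far from the others and 5 were found. A group was 1 cell type at 1 time point, or all cells of 1 sort over all its time points. Chance gives about 1 in 20 for libraries that are alike, which those of a sort at several times need not be. In microglia at D3, D3_mixed 3 had 22.6 CPM of F13a1 (next highest 4.81 CPM) and 17.6 CPM of F7 (next 0.481 CPM). F3 was at 48.7 CPM in the macrophages of D1_mixed 3 (54 cells; next 4.24 CPM). The other 2 cannot be told from counting error: Vcan was at 2.89 CPM in the microglia of D3_resident 2 (next 0.629 CPM), and F3 at 1.73 CPM in the macrophages of D10_infiltrating 1, but a count of 0 allows 5.06 to 6.18 CPM in the 3 other libraries without Vcan and 3.33 to 4.96 CPM in the 3 without F3.

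The change from D1 to D10 differed between macrophages and microglia by log2 values of -2.85 for Fn1, -6.84 for Thbs1, -2.53 for Plaur and -3.38 for Plau, as tested in the joint edgeR fit.

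The D3 library with conflicting labels entered no main fit. Its 2367 macrophages had 589 CPM of F10, 500.4 CPM of F13a1, 47.0 CPM of F7, 0.450 CPM of F3, 1339.9 CPM of Thbs1, 951 CPM of Fn1, 152 CPM of Vcan, 233 CPM of Plaur and 63.8 CPM of Plau, all above the 0.123 CPM that a count of 0 allows there (3 counts).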

How the results depend on the processing

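No member called with the main settings changed direction under any alternative. Fn1 and Vcan in macrophages at D10 against D3, not called there (-1.09 and -0.56), had log2 changes of 1.33 and 3.55 in the mixed libraries alone. D3_mixed 3 is the only D3 library of that setting. The 5 macrophage calls at D10 against D1 were kept in all 15 alternatives. Numbers of members called moved by more than 1.5 times as follows. Without the count filter 6 were called in microglia at D3 against Ctrl, 5 at D10 against D3, and 3 between sorts; DESeq2 called 3 between sorts and 1 in microglia at D3 against D1, as did a minimum of 50 cells for the latter. With the pool as a term 1 was called in microglia at D3 against Ctrl, 0 at D10 against D3, and 1 in macrophages at D21 against D1. With the mixed libraries alone 1 was called in microglia at D3 against D1 and 0 at D10 against D3. That setting leaves 1 library in Ctrl of microglia and in each of D3 and D21 of macrophages. Some counts against these groups moved too and are not given. Without clusters 2 and 3, chosen after seeing the data, 0 were called in macrophages at D21 against D1. With the library of conflicting labels as infiltrating, 3 were called between sorts.

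Leaving out each library gave 2 to 5 in microglia at D3 against Ctrl, 1 to 3 at D3 against D1 and 0 to 3 at D10 against D3, 0 to 5 in macrophages at D21 against D1 and 0 to 3 at D10 against D3, 1 to 4 for the difference between cell types and 0 to 4 between sorts. The cause was not tested.

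Replicate numbers did not pair the libraries (same-number correlations of -0.002, 0.154 and 0.137 between D1 and D3 microglia). With a replicate block 1 member was called in microglia at D3 against D1 and 0 at D10 against D3. The pool as a term could not be fitted where it was confounded with time: microglia at D1 and D21 against Ctrl and at D3 against D1, and macrophages at D10 against D1 and against D3. Median-of-ratios scaling moved the median of all genes in microglia against Ctrl to between -0.18 and -0.11 on the log2 scale. F10, F7 and Vcan in microglia and F3 in both cell types rest on few UMIs.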
